A study of Mus musculus with 6 samples.

Results

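The miR-106a-363 and miR-106b-25 clusters are the paralogues of the better known miR-17-92 cluster. They were followed here in small RNA libraries of mouse myocardium (heart muscle) taken 6 d or 0 h after death. There were 3 libraries at a post-mortem interval of 6 d and 3 at 0 h; the series title names estimation of that interval as the purpose. The labels state no strain, age, sex or cause of death, and do not say whether the libraries of an interval came from separate animals, so every p-value reflects the spread among these libraries alone, which may be technical. Members were taken by name, as every deposited row whose name begins with miR-106a, miR-18b, miR-20b or miR-363 (first cluster) or with miR-106b, miR-93 or miR-25 (second cluster). This gave 12 of the 984 mature miRNAs, 6 in each cluster.

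A miRNA cluster is transcribed as 1 primary transcript, which is cut into hairpins and then into mature strands from the 5p and 3p arms of each hairpin. Targets are chosen mainly by the seed, bases 2 to 8 of the mature strand, and members with the same seed share most of their predicted targets. The miR-17 family is best known for favouring proliferation and restraining the cell-cycle inhibitor p21 and the pro-apoptotic protein Bim. In RefSeq's GRCm38.p6 annotation the hairpins Mir106a to Mir363 lie on the minus strand of the X chromosome, at chrX:52741693-52742567, a span of 875 bases. Mir106b, Mir93 and Mir25 lie on the minus strand of chromosome 5 at chr5:138165321-138165818, a span of 498 bases inside the gene Mcm7, which encodes a subunit of the replicative DNA helicase. In GENCODE M21 no exon of the longest Mcm7 transcript overlaps these hairpins, which are therefore intronic to it, although an exon of a shorter Mcm7 transcript does. The X-linked span also holds Mir19b-2 and Mir92-2, whose 3p strands are the same as those of miR-17-92. These positions describe the reference, since the sources used here do not give the build behind the deposited files.

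The mature strands that the results turn on fall into 3 seed groups, which is why they are shown with the seed in capitals (RefSeq, GRCm38.p6, 5′ to 3′). A sequence was found for 11 of the 12 members. The first group has the seed AAAGUGC and holds members of all 3 clusters.
mmu-miR-20b-5p: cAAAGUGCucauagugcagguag
mmu-miR-106a-5p: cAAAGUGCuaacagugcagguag
mmu-miR-93-5p: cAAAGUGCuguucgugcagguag
mmu-miR-106b-5p: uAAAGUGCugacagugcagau
mmu-miR-17-5p: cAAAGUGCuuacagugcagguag
mmu-miR-20a-5p: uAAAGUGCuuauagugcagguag
The second has the seed AAGGUGC.
mmu-miR-18b-5p: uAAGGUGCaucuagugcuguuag
mmu-miR-18a-5p: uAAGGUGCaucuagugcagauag
The third has the seed AUUGCAC.
mmu-miR-363-3p: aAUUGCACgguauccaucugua
mmu-miR-25-3p: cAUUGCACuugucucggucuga
mmu-miR-92a-3p: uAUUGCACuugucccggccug
The 3p strand of the miR-106b hairpin has a seed of its own.
mmu-miR-106b-3p: cCGCACUGuggguacuugcugc

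Several of these strands are near copies of a miR-17-92 strand. Compared base by base from the 5′ end without gaps, and writing the miR-17-92 base, the position and then the member's base, miR-106a-5p differed from miR-17-5p by 1 change (U10A), miR-20b-5p from miR-20a-5p by 2 (U1C and U10C) and miR-18b-5p from miR-18a-5p by 2 (A18U and A20U). The sources used here do not give how reads that match several strands were assigned, so the split between such pairs is uncertain. By contrast miR-363-3p shared only 10 of 21 compared bases with miR-92a-3p, and miR-25-3p shared 18 of 21.

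Depth differed between the intervals, with 617069 to 1889594 miRNA reads per library at 6 d and 4468547 to 7906557 at 0 h. Levels are given as normalised CPM, which are reads per 1000000 reads further divided by a factor per library that was recovered from the deposited values. A floor of 3 reads corresponded to 1.91 to 3.97 normalised CPM at 6 d and to 0.463 to 0.730 at 0 h. A fold change compares reads scaled within each library and is therefore relative to other miRNAs. In bulk tissue fewer cells of a type and less RNA per cell cannot be told apart. The heart miRNA miR-1a-3p was abundant at both intervals, at 110064 to 532712 normalised CPM at 6 d and 251639 to 487823 at 0 h, and is a defining marker of striated muscle.

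Both clusters stood higher at 6 d. Of the 9 members that passed the filter on low values (at least 1 normalised CPM in at least 3 libraries), 7 rose and 0 fell by limma at an adjusted p under 0.05, against a background of 16% of 470 tested miRNAs that rose and 21.9% that fell (37.9% in either direction). The count of members that fell was also 0 at an unadjusted limma p under 0.05, with edgeR and with DESeq2. The 3 strands that did not pass the filter, miR-25-5p, miR-363-5p and miR-18b-3p, are given below by their reads. All 4 tested members of the miR-106a-363 cluster were called, and 3 of 5 in the miR-106b-25 cluster. Of the 9 tested members 7 were higher at 6 d without overlap, where 50.6% of all tested miRNAs did not overlap and 19.8% were higher at 6 d without overlap. These are the same 7 that were called, and both counts rest on the same values, so the second is no separate support. The median log2 fold change of the tested members was 1.86, beside -0.33 over all 470 miRNAs. Of the 9, miR-18b-5p passed the filter only through its 6 d libraries, so its difference is partly built into the filter.

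**Figure D1:**
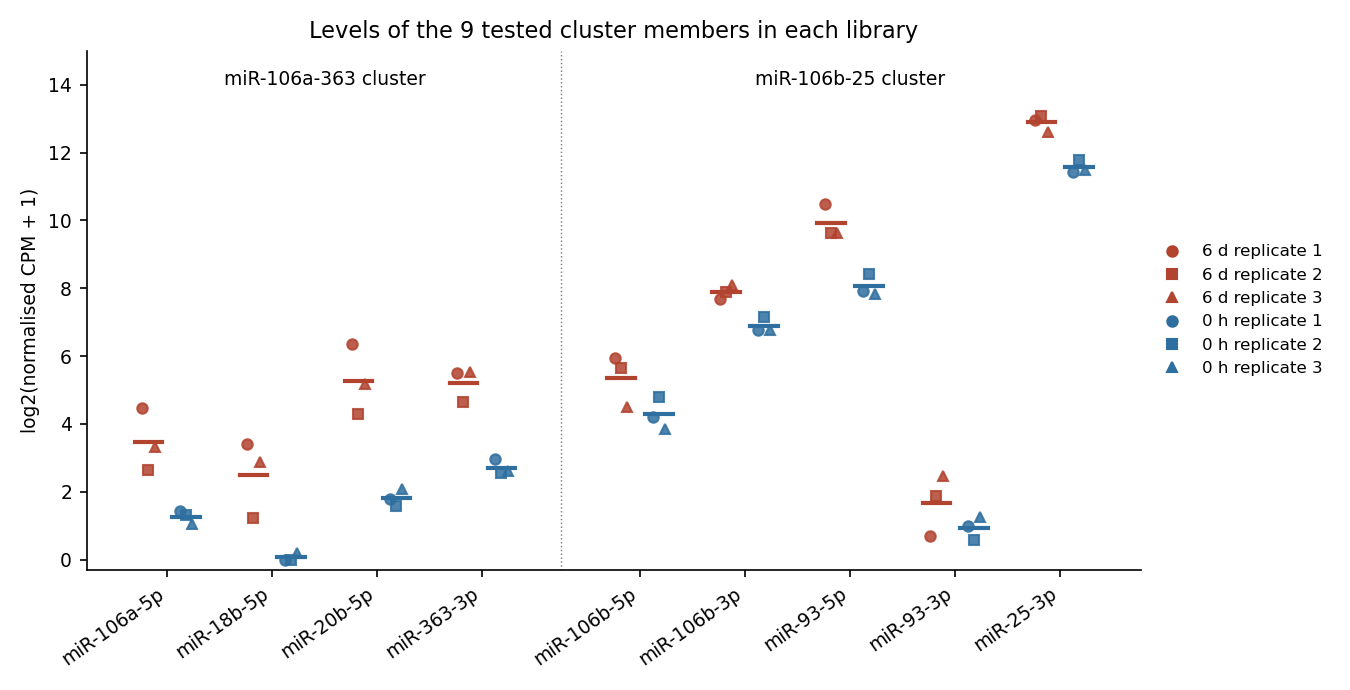
Level of each tested member, as log2(normalised CPM + 1), in the 3 libraries at 6 d (red) and the 3 at 0 h (blue), with horizontal bars at the means. For 7 of the 9 members every 6 d library lies above every 0 h library, and miR-106b-5p and miR-93-3p overlap.

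The X-linked cluster was scarce in fresh myocardium and stood out more at 6 d. Its largest log2 fold change on the log2(value + 1) scale was that of mmu-miR-20b-5p, a miR-17 family strand, while miR-18b-5p changed more by pooled reads, with 0.25 added in place of 1 and with DESeq2. It had 80.2, 18.5 and 35.2 normalised CPM in the 6 d libraries, against 2.43, 2.0 and 3.24 at 0 h, from 126, 14 and 39 reads at 6 d and 10, 12 and 21 at 0 h. The lowest 6 d library was thus well above the highest 0 h library, although the 6 d libraries themselves differed 4.33-fold. The mean was 44.6 ± 31.9 at 6 d and 2.56 ± 0.63 at 0 h (SD, n = 3 each), and the log2 fold change was 3.45 ± 0.53 (SE, limma adjusted p = 0.0011), the rank 13 among all tested miRNAs. Without 6 d replicate 1 the 6 d mean dropped to 26.9 normalised CPM and the log2 fold change was 2.92 (limma adjusted p = 0.0019).

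For mmu-miR-363-3p, the cluster's last hairpin and a miR-25/92 family strand, the 6 d libraries had 43.9, 23.8 and 45.1 normalised CPM and the 0 h libraries 6.82, 4.82 and 5.10. These values varied 1.89-fold at 6 d and 1.41-fold at 0 h, less than those of miR-20b-5p at both intervals. The log2 fold change was 2.51 ± 0.41 (SE, limma adjusted p = 0.0014). Its other arm, miR-363-5p, had 1, 0 and 3 reads at 6 d and 2, 6 and 5 at 0 h and was not tested.

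Levels of mmu-miR-106a-5p, which leads the cluster and is 1 base away from miR-17-5p, were 21.0, 5.29 and 9.02 normalised CPM at 6 d and 1.70, 1.5 and 1.08 at 0 h. They came from few reads, 33, 4 and 10 at 6 d and 7, 9 and 7 at 0 h. The log2 fold change of 2.21 ± 0.51 (SE, limma adjusted p = 0.0088) is on the log2(value + 1) scale and understates the change of so low a miRNA: the ratio of pooled reads was 9.87, with a 95% exact interval of 5.88 to 17 that covers counting error only. Without 6 d replicate 1 the 6 d mean was 7.16 normalised CPM, against 11.8 with it. After every library was thinned to 617069 reads the call was lost (log2 fold change 1.77, limma adjusted p = 0.094).

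The scarcest tested strand of this cluster was mmu-miR-18b-5p, with 15, 1 and 7 reads at 6 d and 0, 0 and 1 at 0 h, although the 0 h libraries were the deeper ones. In normalised CPM that was 9.55, 1.32 and 6.32 at 6 d and 0, 0 and 0.154 at 0 h. Only 2 of the 6 d libraries lay above the floor of 3 reads, and no 0 h library did. Pooling the reads of each interval gave a ratio of 111 (95% exact interval for counting error 18 to 4578), and the log2 fold change was 2.43 ± 0.57 (SE, limma adjusted p = 0.0088). That fold was set largely by the value added before the log, at 1.16 with 4 and 3.99 with 0.25, and was 6.69 with DESeq2. Without 6 d replicate 1 the 6 d mean dropped to 3.82 normalised CPM, and without any 1 of the 6 d libraries miR-18b-5p no longer passed the filter and had no test. Its passenger miR-18b-3p had 1 read in all at each interval.

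Among the miR-106b-25 strands mmu-miR-25-3p was by far the most abundant, rank 15 of all miRNAs by mean level at 6 d and rank 30 at 0 h. It had 7967, 8682 and 6281 normalised CPM at 6 d and 2747, 3518 and 2867 at 0 h, narrow ranges that did not overlap. The log2 fold change was 1.32 ± 0.30 (SE, n = 3 each, limma adjusted p = 0.0076). With 26038 reads at 6 d and 51005 at 0 h, counting error was small, and pooled reads gave a ratio of 2.47 (95% exact interval 2.43 to 2.5). The passenger miR-25-5p had 0 reads in the 6 d libraries and 8, 6 and 2 at 0 h. Its mean of 1.08 normalised CPM at 0 h lies under the 6 d floors, so a fall was not detectable at this depth. Pooled reads of miR-25-5p gave a ratio of 0 (95% exact interval for counting error 0 to 1.25), below the ratio of miR-25-3p.

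The miR-17 family strand mmu-miR-93-5p rose most in this cluster. Its 6 d libraries had 1442, 786 and 789 normalised CPM and its 0 h libraries 243, 343 and 225, so that every 6 d library was above every 0 h one. The log2 fold change was 1.86 ± 0.36 (SE, limma adjusted p = 0.0035). The 3p arm, miR-93-3p, had 1, 2 and 5 reads at 6 d and 4, 3 and 9 at 0 h, and its log2 fold change of 0.74 had a 95% interval of -0.41 to 1.89 (limma adjusted p = 0.28).

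The hairpin of miR-106b gave more 3p than 5p reads in all 6 libraries. For each 100 reads of miR-106b-5p there were 338, 486 and 1254 reads of miR-106b-3p at 6 d and 611, 532 and 797 at 0 h. Levels of mmu-miR-106b-3p were 206, 238 and 272 normalised CPM at 6 d and 107, 142 and 107 at 0 h. Its log2 fold change was 1.01 ± 0.30 (SE, limma adjusted p = 0.024), a call lost with no filter (adjusted p = 0.080), without 0 h replicate 1 (0.10), 0 h replicate 3 (0.078), 6 d replicate 2 (0.068) or 6 d replicate 3 (0.059).

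For mmu-miR-106b-5p the libraries had 61.1, 49.0 and 21.7 normalised CPM at 6 d and 17.5, 26.6 and 13.4 at 0 h. The lowest 6 d library lay within the 0 h range. Its log2 fold change of 1.08 was close to that of the 3p arm but had a wider spread, with a 95% interval of 0.043 to 2.13 (limma adjusted p = 0.092). It was past the threshold when scaled by library totals only (1.52, limma adjusted p = 0.027), with edgeR (1.34, adjusted p = 0.036), with DESeq2 (1.41, adjusted p = 0.022), with the replicate number as a block (1.08, limma adjusted p = 0.0498) and without 6 d replicate 3 (1.52, limma adjusted p = 0.016).

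The order of levels was nearly the same at both intervals. At 6 d miR-25-3p, miR-93-5p and miR-106b-3p came first without overlap between neighbours, and miR-20b-5p, miR-106b-5p and miR-363-3p followed with overlapping ranges. At 0 h the same 3 strands led, and miR-106b-5p, miR-363-3p, miR-20b-5p and miR-106a-5p followed in that order, each above the next in every library. The step from miR-106b-5p to miR-20b-5p, clear at 0 h with a lowest library of 13.4 against a highest of 3.24 normalised CPM, was not seen at 6 d. Levels of different strands also carry the ligation and amplification bias of small RNA libraries.

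Summed over its members, the miR-106b-25 cluster held 0.805%, 1.05% and 1.32% of all miRNA reads at 6 d and 0.287%, 0.306% and 0.285% at 0 h. The miR-106a-363 cluster held 0.0130%, 0.00529% and 0.0177% at 6 d and 0.00105%, 0.000708% and 0.000932% at 0 h. In normalised CPM the sums were 8934 ± 1358 at 6 d and 3454 ± 502 at 0 h for miR-106b-25, and 101 ± 53.5 at 6 d and 10.4 ± 1.07 at 0 h for miR-106a-363 (SD, n = 3 each). The groups did not overlap for either sum. Each gave an exact two-sided permutation p of 0.1, which is the lowest value possible with 3 libraries an interval, and 0.12 after Benjamini-Hochberg adjustment over 22 composition measures.

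Ratios to miR-20b-5p were compared within the miR-106a-363 cluster. The main limma fit called no cluster member, while it called 93.2% of the 469 ratios to miR-20b-5p over all miRNAs. For each 100 reads of miR-20b-5p there were 26.2, 28.6 and 25.6 reads of miR-106a-5p at 6 d, against 70, 75 and 33.3 at 0 h, and 54.8, 129 and 128 reads of miR-363-3p at 6 d, against 280, 242 and 157 at 0 h. Both ratios were lower in every 6 d library than in any 0 h library, though how many of all ratios did not overlap was not counted. The limma test of the log2 ratio to miR-20b-5p did not call either, with a change of -1.24 for miR-106a-5p (95% interval -2.89 to 0.40, adjusted p = 0.14) and of -0.94 for miR-363-3p (-2.45 to 0.56, adjusted p = 0.23). After thinning (adjusted p = 0.020) and without 6 d replicate 1 (adjusted p = 0.039) the limma test did call the ratio of miR-106a-5p. For each 100 reads of miR-20b-5p there were 11.9, 7.14 and 17.9 reads of miR-18b-5p at 6 d and 0, 0 and 4.76 at 0 h, higher in every 6 d library. The fitted change of -1.03 (-2.71 to 0.66, limma adjusted p = 0.24) has the opposite sign to these reads. It depended on the value added before the log, at 0.22 with 0.25 added and -1.52 with 4 added (limma adjusted p = 0.027), so no direction is given for this pair.

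In the other cluster the ratios to miR-93-5p were not called. For each 100 reads of miR-93-5p there were 14.3, 30.3 and 34.4 reads of miR-106b-3p at 6 d and 44.1, 41.3 and 47.6 at 0 h, 2 ranges that did not overlap. The reads of miR-25-3p per 100 of miR-93-5p were 552, 1104 and 796 at 6 d and 1132, 1026 and 1275 at 0 h, and overlapped. Changes of the log2 ratio to miR-93-5p were -0.85 for miR-106b-3p (95% interval -1.88 to 0.18, limma adjusted p = 0.13), -0.77 for miR-106b-5p (-1.90 to 0.36, adjusted p = 0.21) and -0.53 for miR-25-3p (-1.52 to 0.46, adjusted p = 0.32). Most ratios to miR-20b-5p and to miR-93-5p were called over the whole table, 93.2% and 76.3%.

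The 5p to 3p proportion of a hairpin does not depend on library scaling. Of 116 hairpins with both arms tested 37.9% changed it, and the call was missed for both testable hairpins of these clusters. The change in the log2 5p to 3p ratio was 0.13 for miR-106b (95% interval -1.14 to 1.40, limma adjusted p = 0.86) and 0.38 for miR-93 (-1.68 to 2.43, limma adjusted p = 0.74). These intervals leave room for changes of more than 2-fold in either direction.

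The miR-17-92 cluster offers a same-seed comparison within each library. Of its 10 listed strands 8 were in the files and 6 were tested, of which 0 rose and 0 fell by limma, and its median log2 fold change was 0.18. At an unadjusted p under 0.05 limma found 0 of the 6, edgeR found 1 of 5 and DESeq2 2 of 8, all higher, and neither edgeR nor DESeq2 called any after adjustment. Strands miR-20a-3p and miR-92a-1-5p were at 0 in all 6 d libraries and had only 6 and 9 reads in all at 0 h. Their 0 h means of 0.457 and 0.535 normalised CPM lie under the 6 d floors, so a fall was not detectable. The log2 fold change was 0.57 for miR-17-5p (95% interval -0.27 to 1.42, adjusted p = 0.26), 0.73 for miR-20a-5p (-0.53 to 1.98, adjusted p = 0.33) and -0.25 for miR-18a-5p (-1.23 to 0.74, adjusted p = 0.69). Of the strands that both miR-17-92 and miR-106a-363 encode, miR-92a-3p rose by 1.20 ± 0.31 (SE, limma adjusted p = 0.013), and miR-19b-3p had a log2 fold change of 0.07 (adjusted p = 0.93). Reads of these strands cannot be assigned to either locus.

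**Figure D2:**
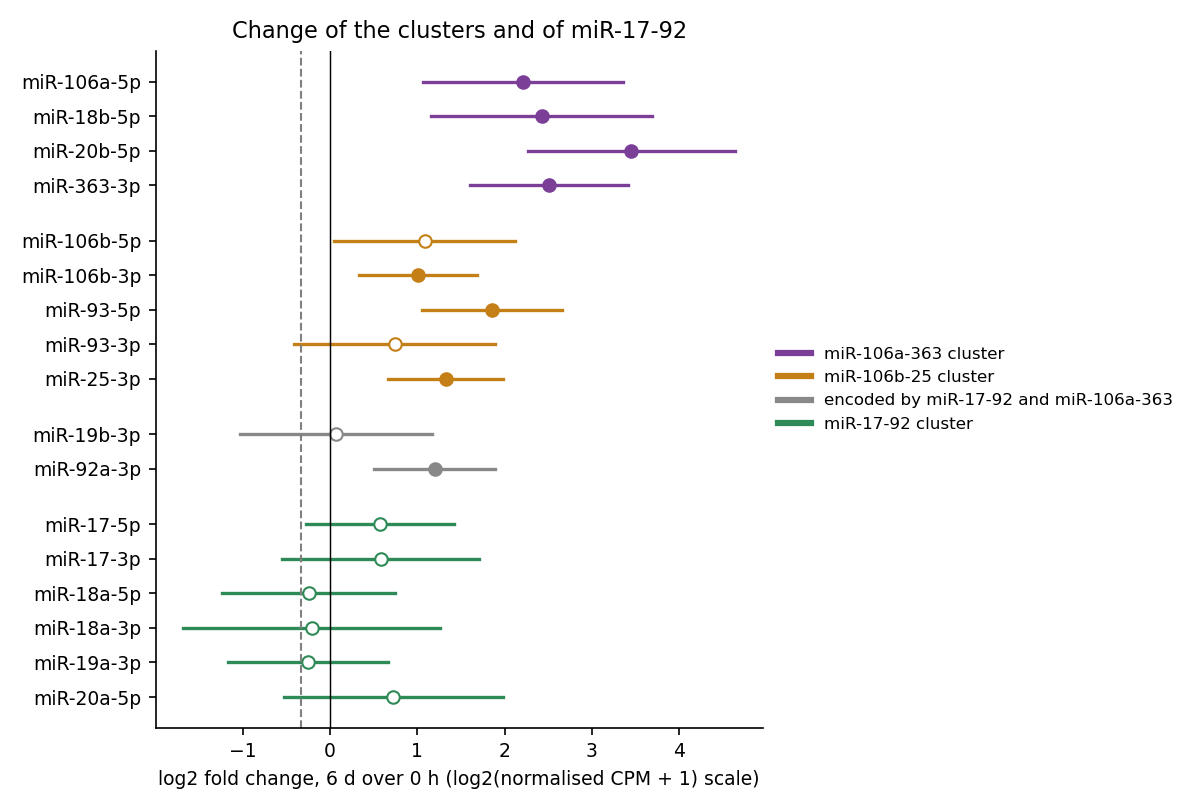
Log2 fold change of 6 d over 0 h with its 95% limma interval for the tested strands of each cluster. Filled circles passed an adjusted p under 0.05, and the dashed line is the median of all 470 tested miRNAs at -0.33.

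Each of the 4 tested strands of the X-linked cluster was set against its closest miR-17-92 relative. All 4 ratios were larger in every 6 d library than in any 0 h library. For levels, 50.6% of all tested miRNAs did not overlap in either direction, and 19.8% were higher at 6 d without overlap. The share of all ratios without overlap was not counted, so how unusual these 4 are is not known. For each 100 reads of miR-20a-5p there were 7.54, 7.69 and 14.4 reads of miR-20b-5p at 6 d and 1.15, 0.637 and 1.56 at 0 h. The log2 ratio rose by 2.73 (95% interval 0.90 to 4.56, limma adjusted p = 0.029), where 15.4% of the 469 ratios to miR-20a-5p were called. Unlike the level of miR-20b-5p, this ratio was no higher in 6 d replicate 1 than in the other 6 d libraries, and miR-20a-5p was also high there, at 1064 normalised CPM against 241 and 245. The call was lost in 6 of 10 alternatives, with adjusted p up to 0.18.

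For miR-18b-5p and miR-18a-5p there were 15, 1 and 7 reads of miR-18b-5p beside 4, 1 and 4 of miR-18a-5p at 6 d, and 0, 0 and 1 beside 15, 12 and 23 at 0 h. In 6 d replicate 2 both were under the floor of 3 reads. The log2 ratio rose by 2.67 (95% interval 1.46 to 3.88, limma adjusted p = 0.0020), where 26.7% of ratios to miR-18a-5p were called. Its size ran from 1.29 with 4 added to 4.31 with 0.25 added, and because miR-18b-5p passed the filter only through its 6 d libraries, this rise too is partly built into the filter. Reads of miR-363-3p per 100 of miR-92a-3p were 10, 5.90 and 12.7 at 6 d and 4.14, 2.23 and 3.51 at 0 h, and this log2 ratio rose by 1.31 (0.21 to 2.41, adjusted p = 0.034), where 67.4% of ratios to miR-92a-3p were called. Its call was lost in 7 of 10 alternatives, with adjusted p up to 0.10.

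Reads of miR-106a-5p per 100 of miR-17-5p were 7.75, 4.21 and 6.17 at 6 d and 1.71, 0.978 and 1.09 at 0 h. The change in log2 ratio of 1.64 missed the threshold (95% interval 0.24 to 3.04, limma adjusted p = 0.055), where 38.6% of ratios to miR-17-5p were called. It was past it without 6 d replicate 2 (limma adjusted p = 0.037) and with 0.25 added (0.041).

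**Figure D3:**
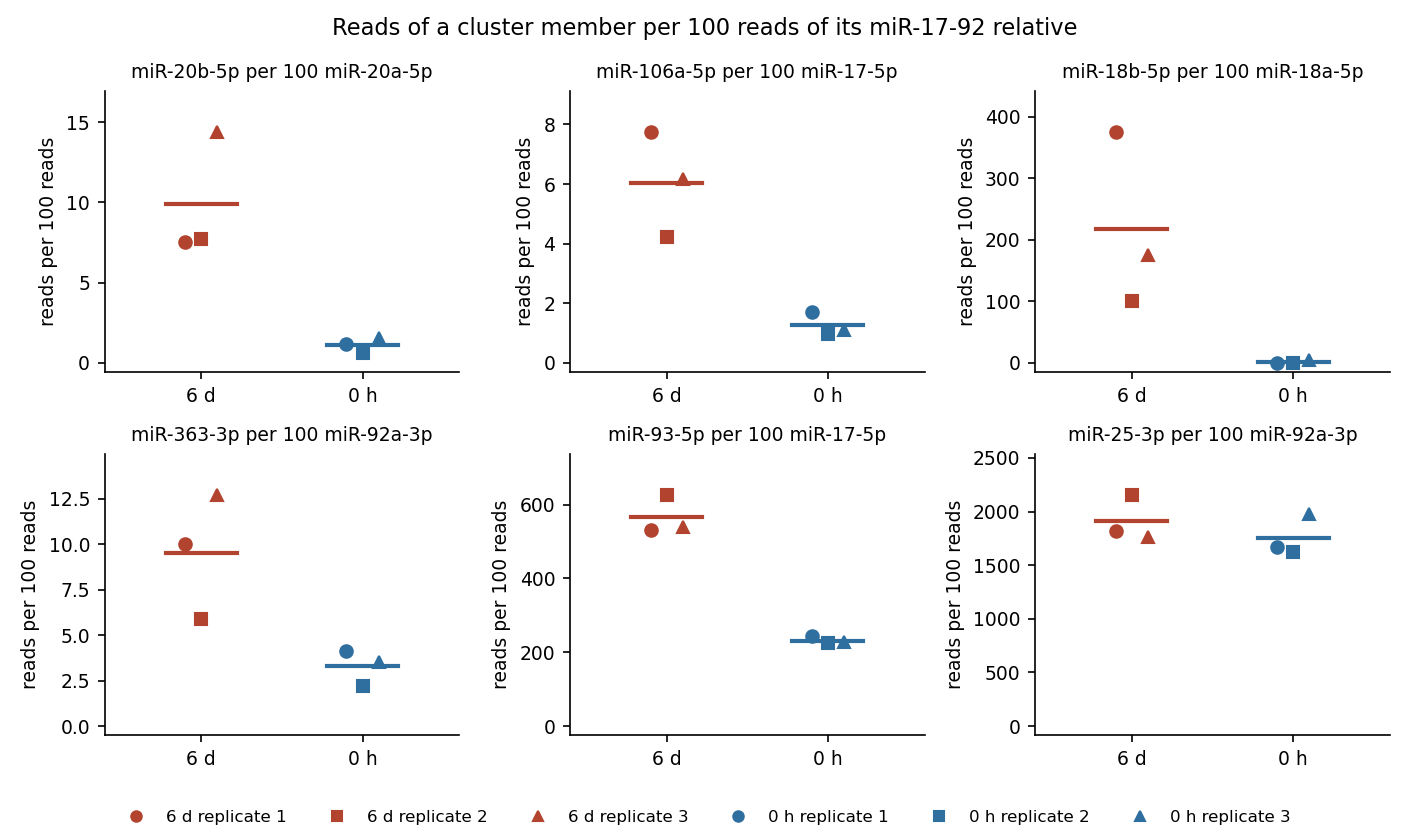
Reads of a cluster member per 100 reads of its miR-17-92 relative in each library, at 6 d (red) and 0 h (blue), with bars at the means and each axis starting near 0. In 5 panels every 6 d library lies above every 0 h library, and the miR-25-3p panel overlaps. The share of all such ratios without overlap was not counted.

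The second cluster was mixed in the same comparison. Per 100 reads of miR-17-5p there were 532, 625 and 540 reads of miR-93-5p at 6 d and 244, 224 and 227 at 0 h, tight and separate ranges. The change in log2 ratio was 1.28 (95% interval 0.15 to 2.42, limma adjusted p = 0.064), with an SE of 0.58 that the fit drew from all ratios to miR-17-5p and that exceeds the SD of 0.13 at 6 d and 0.06 at 0 h of this one. Without 6 d replicate 1 it was called (limma adjusted p = 0.045). For miR-106b-5p the change against miR-17-5p was 0.51 (-0.70 to 1.73, adjusted p = 0.50). For miR-25-3p against miR-92a-3p it was 0.13 (-0.68 to 0.93, adjusted p = 0.79), with 1814, 2151 and 1767 reads per 100 of miR-92a-3p at 6 d and 1667, 1626 and 1976 at 0 h.

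The shares that these clusters held of each seed were set side by side. Seed families were formed from the 851 of 984 miRNAs with a RefSeq mature sequence, so any strand without one is left out. Of the reads with the seed AAAGUGC, members of miR-106b-25 held a mean of 61.5% ± 9.06 at 6 d and 44.2% ± 0.94 at 0 h, and members of miR-106a-363 held 2.98% ± 0.90 at 6 d and 0.640% ± 0.197 at 0 h (SD, n = 3 each). The share of miR-93-5p alone was 49.1%, 64.1% and 63.3% at 6 d and 42.2%, 40.9% and 40.9% at 0 h. That of miR-20a-5p was 36.2%, 19.7% and 19.6% at 6 d and 36.8%, 37.3% and 37.9% at 0 h, so 6 d replicate 1 lay near the 0 h libraries and the other 6 d libraries lay far below. For the seed AAGGUGC the share of miR-18b-5p was 64.2% ± 14.5 at 6 d and 1.39% ± 2.41 at 0 h, from the few reads given above.

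Among strands with the seed AUUGCAC, which also include miR-92b-3p and miR-32-5p, miR-25-3p held most of the reads at both intervals, 93.6% ± 1.05 at 6 d and 92.2% ± 0.29 at 0 h, while miR-363-3p held 0.481% ± 0.207 at 6 d and 0.173% ± 0.051 at 0 h (SD, n = 3 each). The whole AAAGUGC family made up 0.200% ± 0.060 of all miRNA reads at 6 d and 0.0552% ± 0.0078 at 0 h, and the AUUGCAC family 0.970% ± 0.248 at 6 d and 0.280% ± 0.008 at 0 h. Each of the seed shares and totals given so far had an exact two-sided permutation p of 0.1, the smallest possible here, and 0.12 after adjustment over the 22 measures. Other measures overlapped between the intervals. The AAGGUGC family total was 0.00102% ± 0.00075 at 6 d and 0.000272% ± 0.000104 at 0 h (exact permutation p = 0.3). The seed shares of miR-106b-5p (exact permutation p = 0.8), miR-92a-3p (0.5) and miR-32-5p (0.2) also overlapped.

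**Figure D4:**
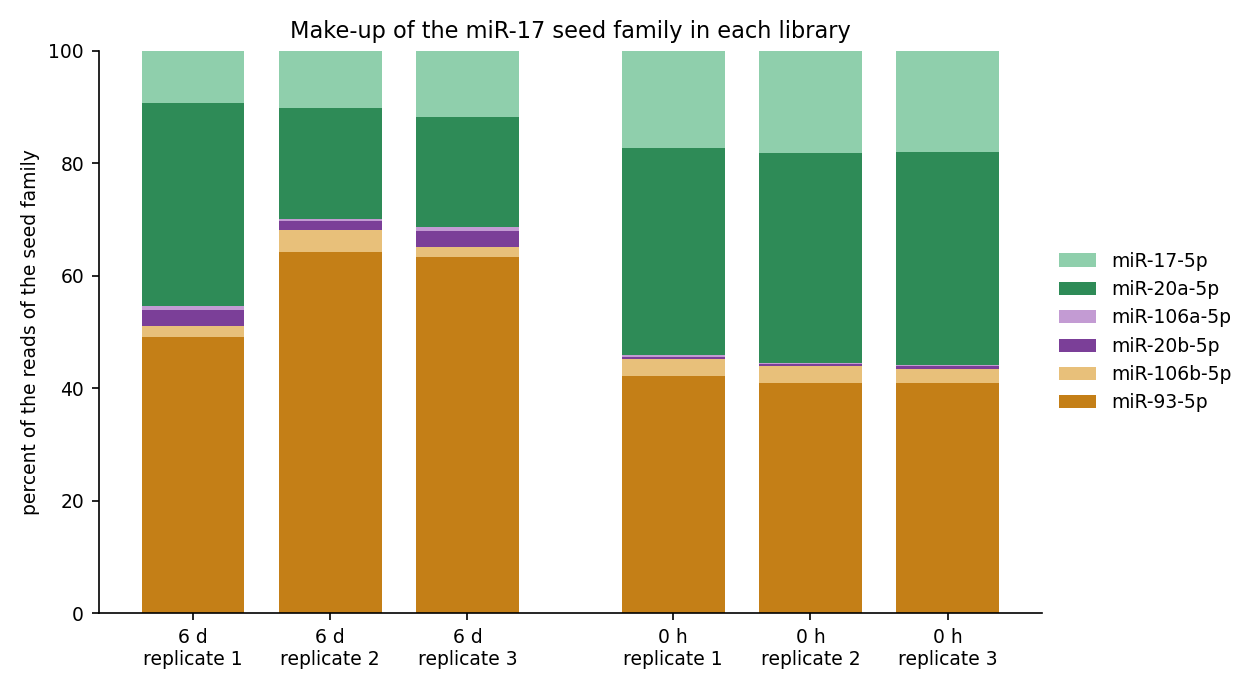
Percent of the reads with the seed AAAGUGC held by each of its 6 strands with a RefSeq sequence, in the 3 libraries at 6 d and the 3 at 0 h. The dark orange part, miR-93-5p, covers 49.1% to 64.1% at 6 d and 40.9% to 42.2% at 0 h, and the purple parts, from the X-linked cluster, are wider at 6 d.

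Markers of some other cell types also moved between the intervals. Over all 470 tested miRNAs 16% rose and 21.9% fell by limma, and the erythroid and leukocyte limma counts lie near these shares. Of 7 epithelial miRNAs 6 rose and 0 fell by limma, edgeR and DESeq2 alike, with a summed level of 1408 to 2579 normalised CPM at 6 d and 139 to 439 at 0 h. The exception was miR-203-3p, with a log2 fold change of -0.26. The skeletal muscle miRNA miR-206-3p stood at 685 to 1440 at 6 d and 8.34 to 15.3 at 0 h, and the liver miRNA miR-122-5p at 2086 to 23460 at 6 d and 668 to 1406 at 0 h. The 7 erythroid miRNAs summed to 70344 to 114825 at 6 d and 34526 to 45348 at 0 h, where by limma and edgeR 1 rose, miR-451a, and 2 fell, both of them 3p strands of miR-486. DESeq2 called 1 of the 7 higher and 1 lower. The erythroid sum holds both miR-486a-5p and miR-486b-5p, with 36392 and 36457 reads at 6 d and 213020 and 213236 at 0 h. These may be largely the same reads counted in both strands. Of 7 leukocyte miRNAs 0 rose by limma (3 at an unadjusted p under 0.05, 2 called with edgeR and 3 with DESeq2) and 1 fell, miR-150-3p, with sums of 662 to 1172 at 6 d and 484 to 638 at 0 h. Of 5 cardiac and striated muscle miRNAs 1 rose by limma, miR-133a-3p, and 2 fell, miR-208a-3p and miR-499-5p (1 fell with DESeq2), with sums of 113393 to 535915 at 6 d and 256919 to 491616 at 0 h. The untested liver strand miR-122-3p was at 0 in all 0 h libraries and had 1 read in all at 6 d. No other marker was at 0 throughout an interval. The part of these cells in the levels of both clusters was not tested.

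The miRNAs most like miR-25-3p and miR-20b-5p, the strands of each cluster with the highest mean level over the 6 libraries, were found by the distance between profiles of log2(normalised CPM + 1) over the 6 libraries, each centred on its own mean, among 269 candidates with a mean of at least 10 normalised CPM. Nearest to miR-25-3p were miR-92a-3p, at a distance of 0.34, then miR-652-3p (0.46) and miR-222-3p (0.46), whose log2 fold changes were 1.20, 1.23 and 1.25. Nearest to miR-20b-5p were miR-34c-5p (0.81), known from multiciliated and germ cells, and miR-141-3p (1.16) and miR-200a-5p (1.51), from the epithelial miR-200 family. Like miR-20b-5p, all of these last strands were highest in 6 d replicate 1, miR-34c-5p at 481, 163 and 185 normalised CPM at 6 d and 33.8, 23.8 and 33.0 at 0 h, and miR-141-3p at 81.5, 41.0 and 50.5 at 6 d and 2.19, 1.33 and 3.86 at 0 h. In the other 5 libraries miR-363-3p was above miR-20b-5p, so that choice rests on 6 d replicate 1. These distances describe 6 libraries that share their scaling.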

How the data were processed

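RNA of mouse myocardium was extracted and made into small RNA libraries, 3 for each post-mortem interval, per the labels' protocols. FastQC, Trimmomatic 0.39, cutadapt 2.8 and STAR 2.5.3a are named, with no role, per the submitters' processing notes. Counting tool, miRNA annotation and genome build: not given in the sources used here.

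For 0 h replicate 1 the deposited values are raw counts per miRNA. For the 5 remaining libraries they are log2(x + 1), per the deposited values themselves, where x is reads per 1000000 divided by a factor of the library. Undoing the log gave whole multiples of 1 step per library for 2692 of 2692 testable values (tolerance 0.0005 on the log2 scale), so whole reads were recovered. The count library was brought to that scale with the factor, 0.919, at which all 6 factors multiply to 1. Each file also has 1604 blank lines with no name and no value, which were left out.

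The main test was limma 3.58.1 (trend, robust) in R 4.3.3 on log2(value + 1), over 470 miRNAs with at least 1 normalised CPM in at least 3 libraries, Benjamini-Hochberg adjusted over all. Ratios to 1 strand were fitted over the other 469 miRNAs, and arm ratios, with 1 read added, over 116 hairpins. Alternatives included edgeR 4.0.16 (quasi-likelihood) and DESeq2 1.42.0 on recovered reads, other scalings, pseudocounts and filters, thinning and leaving out each library. The code was tested on simulated data. All strands matching the member names are named, with their miR-17-92 relatives and the called strands of most lists. Members and lists were chosen with earlier results of these data known. The exact intervals of pooled reads and the floors speak only to counting error, as reads carry no molecular identifiers. The limma intervals reflect the spread among libraries.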

Additional observations from a re-analysis of the deposited data

How the results depend on the processing

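All tested members kept a positive log2 fold change in every setting in which they could be tested, and the calls of miR-25-3p, miR-93-5p, miR-20b-5p and miR-363-3p held in all 17 alternatives. Called miRNAs numbered 178 (103 lower), 114 to 179 (58 to 108 lower) with 1 library left out, and 40 lower when scaled by library totals. That scaling moved the median of all tested miRNAs to 0.02, from -0.33. Called members numbered 5 to 7 with 1 library left out. For miR-106b-5p the log2 fold change was 1.52 with library totals, 1.34 with edgeR and 1.41 with DESeq2, all called, and 0.79 to 1.52 with 1 library left out. For miR-106b-3p it was 1.01 with no filter, not called, and 0.91 to 1.14 with 1 library left out. For miR-106a-5p it was 1.77 after thinning, not called. The summed miR-106b-25 log2 ratio was 1.37, 1.59 with RLE factors and 1.83 with library totals. The ratio of miR-106a-5p to miR-17-5p changed by 2.06 with a pseudocount of 0.25, called, and by 1.46 to 1.83 with 1 library left out (called without 6 d replicate 2). That of miR-93-5p to miR-17-5p changed by 1.21 to 1.33 (called without 6 d replicate 1). The ratio of miR-20b-5p to miR-20a-5p changed by 1.96 with a pseudocount of 4, not called, and by 2.42 to 2.96 with 1 library left out. The ratio of miR-363-3p to miR-92a-3p changed by 0.90 with a pseudocount of 4 and 1.36 after thinning, neither called, and by 1.07 to 1.62 with 1 library left out. Against miR-20b-5p, miR-18b-5p changed by 0.22 with a pseudocount of 0.25 and by -1.52 with 4 (called), and miR-106a-5p by -2.90 after thinning (called) and by -1.49 to -1.10 with 1 library left out (called without 6 d replicate 1). The fold of miR-18b-5p ran from 1.16 to 6.69 and its ratio to miR-18a-5p from 1.29 to 4.31 over the settings. The arm ratios, not called, ran from -0.26 to 0.66 for miR-106b and from -0.54 to 0.91 for miR-93 with 1 library left out. The cause was not tested. With the replicate block, miR-106b-5p was called (1.08) and the miR-20b-5p to miR-20a-5p ratio was not (2.73, adjusted p = 0.12, limma). Same-numbered libraries correlated at 0.07, 0.06 and 0.27 in their deviations, so the numbers were not taken as pairs.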
